A study of Mus musculus with 25 samples.

Results

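The hippocampus of 14-day-old (P14) mice of a seizure-prone hybrid background, [129S6/SvEvTac x C57BL/6]F1 (here F1), was compared with that of the inbred 129S6/SvEvTac strain (here 129S6), before any seizures were recorded. The comparison rests on 11 of the 25 libraries of the series, chosen by their labelled strain and age: 6 F1 libraries (3 Scn1a+/- and 3 wild type) and 5 129S6 libraries (3 Scn1a+/- and 2 wild type). Each library is a pool of hippocampi from 12 to 16 mice, so differences between single animals cannot be seen, and no treatment is labelled. Both strains hold Scn1a+/- and wild-type pools, and the strain difference was averaged over these genotypes, so that animals with 1 disrupted copy of Scn1a weigh as much as wild-type animals in each strain. The other 11 libraries without recorded seizures, from 24-day-old (P24) mice of the same strains and genotypes, served to see which differences recurred at that age.

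Scn1a encodes the sodium channel Nav1.1, which carries much of the sodium current of fast-spiking inhibitory neurons. Loss of a copy causes Dravet syndrome in people, and in mice the severity of the seizures depends strongly on strain: Scn1a+/- mice on 129S6 have few seizures, and their F1 offspring with C57BL/6 have frequent seizures and often die early. An F1 animal carries a 129S6 and a C57BL/6 copy of every autosomal gene, so a gene with a strain-specific allele is present in a single dose of each. The submitters' processing notes name the genome build mm10, which is the C57BL/6 sequence, and reads from 129S6 copies can match it less well; the part of that in the differences below was not tested.

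Count totals ran from 7436442 to 14912198 per F1 library and from 10745366 to 21637211 per 129S6 library at P14. On the first principal component of the P14 libraries (21.9% of the variance) the strains separated, and on the second (13.7%) the shallowest library, replicate 2 of F1 Scn1a+/-, stood apart from the rest. Scn1a itself, given in CPM (counts scaled to the library size), averaged 91.2 ± 1.17 (SD, n = 3) in F1 Scn1a+/-, 103 ± 2.2 (n = 3) in F1 wild type, 98.2 ± 5.22 (n = 3) in 129S6 Scn1a+/- and 111 ± 5.38 (n = 2) in 129S6 wild type, with the lower mean in the Scn1a+/- libraries of each strain. Its strain difference was -0.11 on the log2 scale with an edgeR adjusted p of 0.16, and the range over F1 libraries (90.4 to 106 CPM) overlapped that over 129S6 libraries (92.3 to 115 CPM). Nothing in the labels says that the pools came from separate litters or days, so each p-value reflects only how much these pools varied.

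Of 15690 genes tested, 991 (6.32%) differed between the strains at P14 at an edgeR adjusted p under 0.05, with 536 (3.42%) higher and 455 (2.9%) lower in F1. Most differences were small. The median log2 fold change was 0.32 among the higher genes and -0.35 among the lower genes, and 75 genes were more than 1 log2 unit higher against 36 lower by as much. Past 2 log2 units the split was uneven, with 32 genes higher and 4 lower. For 712 genes (4.54%) no F1 library overlapped any 129S6 library, with F1 higher in 379 (2.42%) and lower in 333 (2.12%). Without replicate 2 of 129S6 wild type the count of lower genes was 297, and without the shallowest library 915 genes were called.

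**Figure D1:**
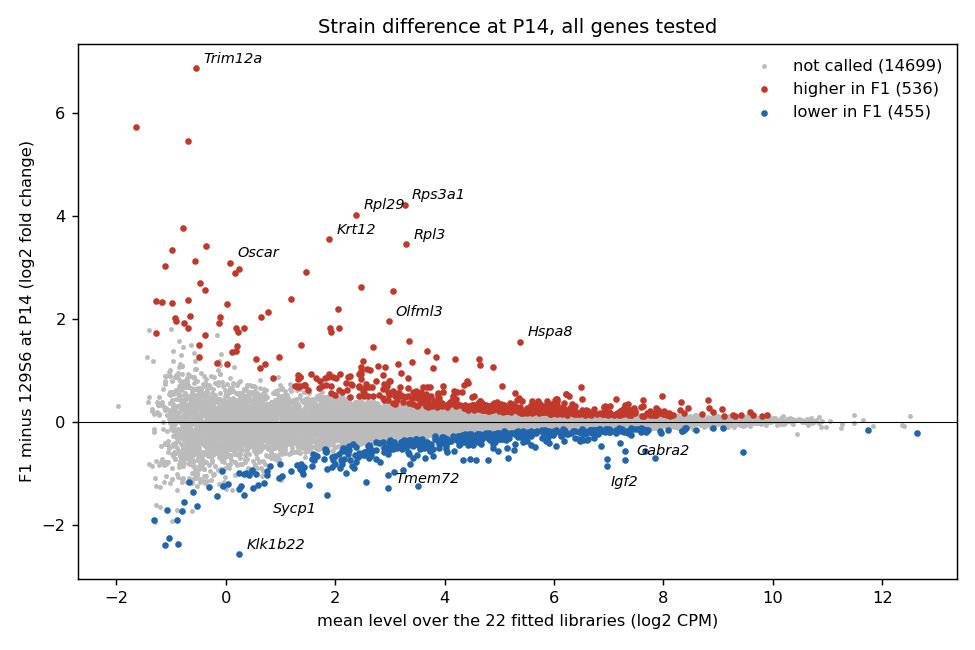
Each point is 1 of 15690 genes tested, with its mean level over the 22 fitted libraries (log2 CPM) on the x axis and its F1 minus 129S6 log2 fold change at P14 on the y axis; 536 genes called higher are red, 455 called lower are blue. The rises reach further than the falls, with Rps3a1, Rpl29, Krt12 and Rpl3 past 3 log2 units among genes above a mean log2 CPM of 1.

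Among genes of inhibitory signalling, Gabra2 stood out. It encodes the alpha2 subunit of the GABA-A receptor, the chloride channel opened by GABA, and lies on chromosome 5 (GRCm38.p6, 70958392 to 71095849). F1 libraries held 118 to 134 CPM of Gabra2 with a median of 125, and the 129S6 libraries held 201, 191 and 183 CPM in Scn1a+/- and 180 and 187 CPM in wild type. All 6 F1 libraries lay below all 5 129S6 libraries. The difference was -0.57 ± 0.04 (SE) on the log2 scale with an edgeR adjusted p of 1.73e-14, and at P24 it was -0.63. Mean Gabra2 in F1 was 129 ± 6.84 CPM in Scn1a+/- and 123 ± 5.58 CPM in wild type (SD, n = 3 each), so the low level was present without the Scn1a mutation. Of the 25 tested genes of GABA receptors, synthesis and transport, 1 was higher and 2 were lower (12% called against 6.32% of all genes). Their median log2 difference was 0.02 against -1.51e-05 over all genes tested. Gabra5, another alpha subunit, was 0.16 higher in F1, a call lost without replicate 1 of 129S6 wild type (0.14, edgeR adjusted p = 0.0828). Slc6a13, a GABA transporter that is abundant in the leptomeninges, differed by -0.54 ± 0.12. The GABA-synthesising enzyme Gad1 differed by 0.01 (edgeR adjusted p = 0.973).

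Among sodium channel genes 1 of 14 was called (7.14%), a share near the 6.32% over all genes. By edgeR none of 21 calcium channel genes and none of 25 glutamate receptor genes was called, with 2 and 5 at an unadjusted p under 0.05, and DESeq2 called none either. With so few genes and that share over all genes, a count of 0 is not a result about these families. Without a filter on low counts, or without replicate 2 of F1 Scn1a+/- or of 129S6 Scn1a+/-, edgeR called 1 calcium channel gene higher. With P14 libraries alone it called 1 glutamate receptor gene higher, and without replicate 1 of 129S6 Scn1a+/- it called 2. The sodium channel gene called was a beta subunit: Scn4b differed by -0.28 on the log2 scale (12.3 to 14.9 CPM against 14.5 to 18.8 CPM), with overlapping libraries. That call was lost without any 1 of replicates 1 and 3 of F1 Scn1a+/-, replicate 1 of F1 wild type, replicate 3 of 129S6 Scn1a+/- and replicate 1 of 129S6 wild type, where it ran from -0.28 to -0.25 (edgeR adjusted p at most 0.162). Scn2a1 and Scn8a, the main excitatory sodium channels, differed by 0.02 and 0.04. Of 14 genes put forward as modifiers of Dravet severity, 2 were lower and none higher (14.3% called against 6.32% of all genes). One was Gabra2 and the other Camk2a, the alpha subunit of the calcium- and calmodulin-dependent kinase of excitatory synapses. Camk2a held 5316 to 5849 CPM in F1 (median 5613) and 6487, 6199, 6611, 6438 and 6669 CPM in the 129S6 libraries, so the libraries did not overlap, and the difference was -0.22 ± 0.04 with an edgeR adjusted p of 0.000178. At P24 Camk2a differed by -0.09, which did not pass the test. Other genes of this list did not pass, among them the transcription factor Hlf (-0.01) and the T-type calcium channel Cacna1g (-0.02).

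Of 66 tested potassium and HCN channel genes, 7 were higher and 3 lower (15.2% called against 6.32% of all genes), with a median difference of 0.01. The counts were 4 and 2 with the seizure libraries in the fit and 4 and 3 without replicate 3 of 129S6 Scn1a+/-. Kcns1, a silent Kv9 subunit that alters Kv2 channels, had the largest change: 7.34 to 8.85 CPM in F1 (median 7.59) against 3.65, 3.42, 3.69, 3.78 and 2.92 CPM in 129S6. The groups were far apart, with a log2 difference of 1.18 ± 0.13 and an edgeR adjusted p of 3.6e-09. Kcnk2, the mechanosensitive background channel TREK-1, was 0.33 ± 0.05 higher, and Kcnip3, a calcium-binding partner of Kv4 channels, was 0.32 ± 0.04 higher, both with no overlap between strains. Kcnj11, the pore of ATP-sensitive potassium channels, was 0.31 higher, with libraries that overlapped. The lower genes were Kcnh5 (-0.46 ± 0.11, but -0.40 with an edgeR adjusted p of 0.0641 without replicate 1 of 129S6 wild type), Kcnk10 (-0.36, a call lost without any 1 of 7 libraries, with -0.27 and an edgeR adjusted p of 0.297 without replicate 1 of 129S6 wild type) and Kcnj10 (-0.17 ± 0.04), the Kir4.1 channel through which astrocytes take up potassium. Kcnj10 ran from 314 to 336 CPM in F1 and from 348 to 376 CPM in 129S6, again with no overlap.

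Receptors of other transmitters gave 3 higher and 1 lower of 32 tested (12.5% called against 6.32% of all genes), with a median of 0.06. The adrenergic receptor gene Adra2c (0.21) lost its call without any 1 of 5 libraries (edgeR adjusted p at most 0.0944) and the nicotinic receptor subunit Chrna4 (0.30) without replicate 2 of 129S6 wild type (0.25, edgeR adjusted p = 0.0809), so that 1 gene was higher without that library. Htr3a, the ion-channel serotonin receptor of interneurons, was 4.36 to 6.19 CPM in F1 and 2.53, 3.1, 2, 2.33 and 3.17 CPM in 129S6. That is a log2 difference of 0.98 ± 0.15 (edgeR adjusted p = 6.88e-06), and at P24 it was 1.06. Drd1, the D1 dopamine receptor, differed by -0.64, but 1 library of 129S6 wild type carried much of the call: without replicate 1 of that group the difference was -0.36 with an edgeR adjusted p of 0.268.

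**Figure D2:**
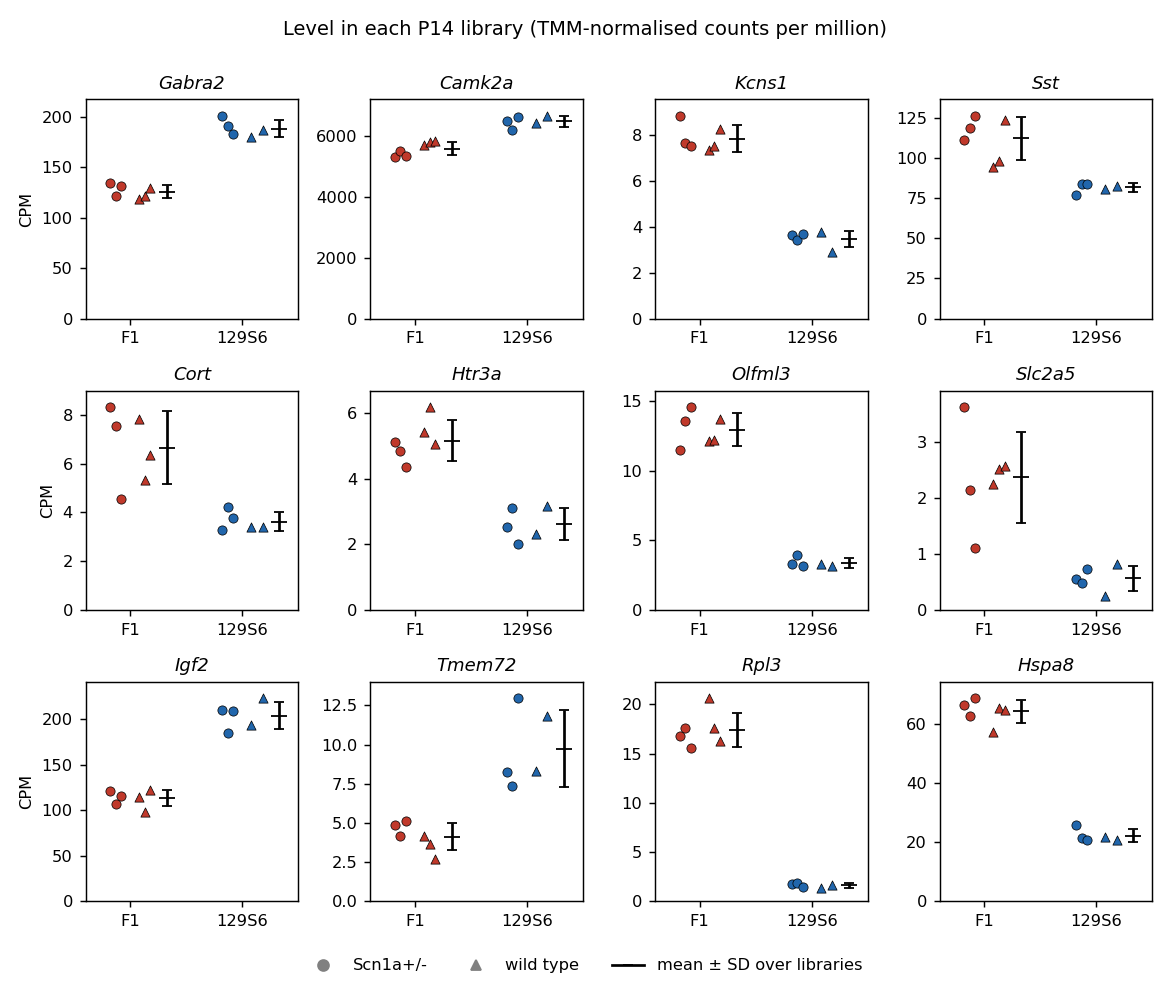
Each panel is a gene; each point is the CPM of 1 P14 library, circles Scn1a+/- and triangles wild type, with the mean and SD over the 6 F1 and the 5 129S6 libraries at the right. In each panel the F1 libraries lie wholly above or wholly below the 129S6 libraries, for example 118 to 134 against 180 to 201 CPM for Gabra2.

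Of 24 neuropeptide genes, 3 were higher and none lower (12.5% called against 6.32% of all genes), with a median difference of 0.10. Sst, the peptide of dendrite-targeting interneurons, ran from 94.6 to 126 CPM in F1 (median 115) and was 76.9, 84, 84, 80.7 and 82.5 CPM in 129S6. It was 0.45 ± 0.06 higher with an edgeR adjusted p of 2.44e-07, and 0.19 higher at P24. Cort, the related peptide cortistatin, ran from 4.54 to 8.32 CPM against 3.27, 4.21, 3.78, 3.4 and 3.42 CPM and was 0.88 ± 0.16 higher, with no overlap. Npy was 0.26 higher, a call lost without any 1 of replicate 3 of F1 Scn1a+/-, replicates 2 and 3 of F1 wild type, replicate 2 of 129S6 Scn1a+/- and replicate 1 of 129S6 wild type (0.22 to 0.25, edgeR adjusted p at most 0.122). Penk differed by -0.14 (edgeR adjusted p = 0.586). Markers of interneurons as a class gave 4 higher and 1 lower of 30 (16.7% called, with 2 higher and 1 lower without replicate 1 of 129S6 wild type), with a median of -0.01, and the fast-spiking marker Pvalb differed by -0.07. Interneuron markers gave 3 higher and 7 lower at P24, where 7.2% of all genes were higher and 6.21% lower. In a bulk sample fewer cells of a type and less RNA per cell cannot be told apart.

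Set against 6.32% called and 3.42% higher over all genes, the lists for hippocampal neurons held 10% to 33.3% called. In the list for CA1 pyramidal cells, 4 of 15 were higher and none lower (26.7%), or 2 with the seizure libraries in the fit: Spink8 was 1.04 ± 0.10 higher (11.8 to 17.3 CPM against 5.89 to 8.18 CPM), and Itpka, an inositol trisphosphate kinase of dendritic spines, was 0.31 ± 0.04 higher (178 to 203 CPM against 151 to 165 CPM). Dentate granule cell markers gave 4 higher and 2 lower of 18 (33.3%), but 1 and 1 without replicate 1 of 129S6 wild type and 1 and 0 with the seizure libraries. They included Trpc6 (0.44 higher, but 0.34 and 0.39 with edgeR adjusted p of 0.0649 and 0.0577 without replicate 3 of F1 Scn1a+/- or replicate 1 of 129S6 wild type) and Dsp, a desmosome protein (-0.26 ± 0.05). CA2 and CA3 markers gave 2 higher of 20 (10%), with Iyd, a deiodinase, at 3.76 to 6.37 CPM in F1 against 1.01 to 2.01 CPM in 129S6, a difference of 1.82 ± 0.20. Markers of immature neurons and dividing cells gave 5 higher and none lower of 29 (17.2%, or 3 with the seizure libraries), with a median of 0.15 and 24 positive differences. Neurog2, a proneural transcription factor, was 0.92 ± 0.18 higher and did not overlap. Mcm6, a replicative helicase subunit, was 0.80 ± 0.12 higher (10.1 to 11.3 CPM against 5.47 to 8.02 CPM). The call of Dcx (0.16 higher) was lost without any 1 of replicate 1 of F1 Scn1a+/-, replicate 1 of F1 wild type, replicates 1 and 2 of 129S6 Scn1a+/- and either 129S6 wild-type library (0.12 to 0.18, edgeR adjusted p at most 0.169). That of Tubb2b (0.17 higher) was lost without replicate 1 of 129S6 wild type (0.16, edgeR adjusted p = 0.0615). At P24, where 7.2% of all genes were higher and 6.21% lower, CA1 markers gave 2 higher and 3 lower. The P24 counts were 8 and 3 for dentate, 4 and 4 for CA2 and CA3, and 7 and 2 for immature neurons and dividing cells. At P14 markers of neighbouring tissue gave 1 higher and 2 lower of 19 for thalamus and habenula (15.8%), 0 higher and 2 lower of 15 for striatum (13.3%) and 2 higher and 1 lower of 20 for neocortex (15%). Without replicate 1 of 129S6 wild type the striatal calls Drd1 (-0.36) and Isl1 (-2.25) and the neocortical calls Fezf2 (0.22) and Mef2c (-0.05) were lost (edgeR adjusted p = 0.268, 0.165, 0.0765 and 0.775), and those of Isl1, Fezf2 and Mef2c were lost without other single libraries too.

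Of the 29 microglial markers tested, 9 were higher in F1 and none lower (31.0% called against 6.32% of all genes), with a median difference of 0.18, and 26 had a positive difference. Microglia are the resident macrophages of the brain. The widely used markers P2ry12, Tmem119 and Cx3cr1 were not called and differed by 0.04, 0.05 and 0.10 (edgeR adjusted p = 0.767, 0.753 and 0.308). The genes called were Slc2a5, a fructose transporter (2.04), Olfml3, a secreted protein (1.95), Mpeg1, a pore-forming phagosome protein (1.26), Fcrls, an Fc receptor-like protein (1.22), Ly86 (0.75), Fcer1g (0.60), Itgam (0.38), Laptm5 (0.24) and C1qc (0.22). At P24, where 7.2% of all genes were higher and 6.21% lower, 19 of the 29 were higher and none lower. The count was 9 without replicate 2 of F1 Scn1a+/-, the shallowest library, and 5 without replicate 2 of 129S6 wild type, where Fcer1g (0.51), Itgam (0.34), Laptm5 (0.18) and C1qc (0.20) lost their calls (edgeR adjusted p = 0.0705, 0.0604, 0.237 and 0.164). Without the shallowest library C1qc also lost its call (0.19, edgeR adjusted p = 0.0994). The count was 7 without replicate 1 of F1 Scn1a+/-, where Itgam (0.28) and Laptm5 (0.20) lost theirs (edgeR adjusted p = 0.0726 and 0.105). It was 7 without replicate 3 of F1 wild type too, where Laptm5 (0.21) and C1qc (0.21) did (edgeR adjusted p = 0.0915 and 0.0654). It was 10 without replicate 3 of Scn1a+/- in either strain. The summed level of the 29 markers was 875.6 to 932 CPM in F1 and 767.4 to 829.1 CPM in 129S6.

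Olfml3 held 11.5 to 14.6 CPM in F1 (median 12.9) and 3.27, 3.97, 3.19, 3.27 and 3.17 CPM in 129S6. Fcrls held 28.9 to 34.6 CPM (median 31.5) and 11.6, 14.4, 12.3, 14 and 14.4 CPM. Mpeg1 held 13.8 to 19.5 CPM (median 15.9) and 8.89, 5.56, 7.06, 5.35 and 7.42 CPM. In all 3 genes the lowest F1 library was above the highest 129S6 library, and the same was true of Slc2a5 (1.11 to 3.63 CPM against 0.252 to 0.824 CPM) and Ly86 (8.42 to 10.8 CPM against 5.24 to 6.51 CPM).

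The promoters of these genes are shown because the genes rose together, with AGGAAG, the core recognised by the microglial factor PU.1, in capitals on either strand (as CTTCCT on the other). Each is the 250 bases before the RefSeq start of the gene, 5′ to 3′ on the gene's strand, from RefSeq on GRCm38.p6. They are the 4 microglial genes whose libraries did not overlap and whose window lay outside the gene's own span, namely chr3:103738002-103738251 (minus strand) for Olfml3, chr19:12460520-12460769 (plus) for Mpeg1, chr4:150119094-150119343 (plus) for Slc2a5 and chr13:37345095-37345344 (plus) for Ly86.
Olfml3: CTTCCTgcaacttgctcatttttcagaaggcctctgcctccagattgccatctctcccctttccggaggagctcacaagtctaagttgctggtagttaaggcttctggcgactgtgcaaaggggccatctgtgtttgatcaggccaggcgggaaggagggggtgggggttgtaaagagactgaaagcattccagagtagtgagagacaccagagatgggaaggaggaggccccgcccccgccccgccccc
Mpeg1: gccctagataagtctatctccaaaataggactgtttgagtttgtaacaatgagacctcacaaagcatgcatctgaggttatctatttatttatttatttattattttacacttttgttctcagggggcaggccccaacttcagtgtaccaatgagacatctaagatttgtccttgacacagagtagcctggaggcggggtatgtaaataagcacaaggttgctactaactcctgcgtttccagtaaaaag
Slc2a5: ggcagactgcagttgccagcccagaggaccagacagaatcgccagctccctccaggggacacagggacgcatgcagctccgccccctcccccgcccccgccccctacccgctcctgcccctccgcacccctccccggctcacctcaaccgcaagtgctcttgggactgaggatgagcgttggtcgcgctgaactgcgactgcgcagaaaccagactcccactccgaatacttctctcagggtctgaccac
Ly86: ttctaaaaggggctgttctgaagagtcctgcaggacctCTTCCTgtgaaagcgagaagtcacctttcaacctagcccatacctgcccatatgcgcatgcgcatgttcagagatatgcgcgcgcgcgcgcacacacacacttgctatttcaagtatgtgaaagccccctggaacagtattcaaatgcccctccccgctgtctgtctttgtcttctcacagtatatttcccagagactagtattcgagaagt
Olfml3 and Ly86 hold the letters 1 time each in this window, and Mpeg1 and Slc2a5 do not. Of the 9 called microglial genes, all in the promoter table, 7 hold AGGAAG on either strand of a 250-base window, against 6 of the 12 tested microglial genes in the table that were not called. Some of these windows, those of Fcrls, C1qc and Laptm5 among them, lie inside the gene's own span. Over all 27025 genes in the table, counted in the same way, the share is 32.3%, and over all 32851 windows it is 29.5%. A match is a description of the letters, not of a binding site.

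Markers of the choroid plexus and the leptomeninges, which border the hippocampus, were lower in F1. Of 18 choroid plexus and ependyma markers 9 were lower and none higher, with a median of -0.33, and of 21 leptomeninges markers 10 were lower and none higher, with a median of -0.36. These shares, 50% and 47.6%, stand beside 2.9% lower over all genes. The choroid plexus is the epithelium that makes cerebrospinal fluid, and the leptomeninges are the fibroblast sheets over the brain surface. Ttr, the thyroxine carrier of choroid plexus, ran from 398 to 737 CPM in F1 (median 602) and was 839, 740, 1197, 780 and 928 CPM in 129S6, a difference of -0.57 ± 0.09 (edgeR adjusted p = 9.62e-06). Kcne2, a potassium channel subunit of choroid plexus, fell by 0.77 on the log2 scale. Tmem72, a membrane protein outside the list, fell by 1.28 (2.72 to 5.1 CPM against 7.39 to 12.9 CPM). Ependymal genes with motile cilia did not follow, with Foxj1 at 0.01 and Ccdc153 at 0.33.

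Igf2, a growth factor imprinted and made in leptomeninges, choroid plexus and vessels, ran from 98.3 to 122 CPM in F1 (median 115) and was 210, 184, 208, 194 and 222 CPM in 129S6. It fell by 0.85 log2 units (-0.85 ± 0.05, edgeR adjusted p = 6.76e-18), and all libraries of F1 were below all of 129S6. Ogn, a small matrix proteoglycan, fell by 0.82, Slc13a4, a sulfate transporter, by 0.70 and Ptgds, which makes prostaglandin D2, by 0.57. The abundant fibroblast genes Dcn and Col1a1 did not follow, at -0.04 and -0.12 (edgeR adjusted p = 0.827 and 0.723). None of the markers of either list was at 0 in all libraries. Summed over tested markers, choroid plexus ran from 618 to 1003 CPM in F1 and 1020 to 1584 CPM in 129S6, and leptomeninges from 377 to 454 CPM against 559 to 647 CPM. Ttr made up most of the choroid plexus sum, so the sum mainly follows that gene. Of the 18 choroid plexus and ependyma markers 14 had a negative difference and 4 a positive one. The choroid plexus ranges nearly met, and the F1 library with the lowest sum was replicate 2 of Scn1a+/-, the shallowest library. Without it 7 choroid plexus and 11 leptomeninges markers were lower, and with the seizure libraries in the fit 5 and 10 were. The highest 129S6 sum for choroid plexus, 1584 CPM, was that of replicate 3 of Scn1a+/-, with 1020 to 1234 CPM in the other 4. Without that library 4 choroid plexus markers were lower, and Folr1 (-0.49, edgeR adjusted p = 0.0757), Clic6, Kl, Enpp2 and Slc4a5 lost their calls. The count was 6 without replicate 2 of 129S6 wild type. Leptomeninges calls were lost there too, among them that of Col3a1 (-0.27 against -0.38 in the main fit). Whether the amount of these tissues in the dissections contributed to other differences was not tested. Markers of endothelium and pericytes gave 1 higher (Rgs5, 0.24) and none lower of 27. That is 3.7% called against 6.32% of all genes, which is not a result about these cells.

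**Figure D3:**
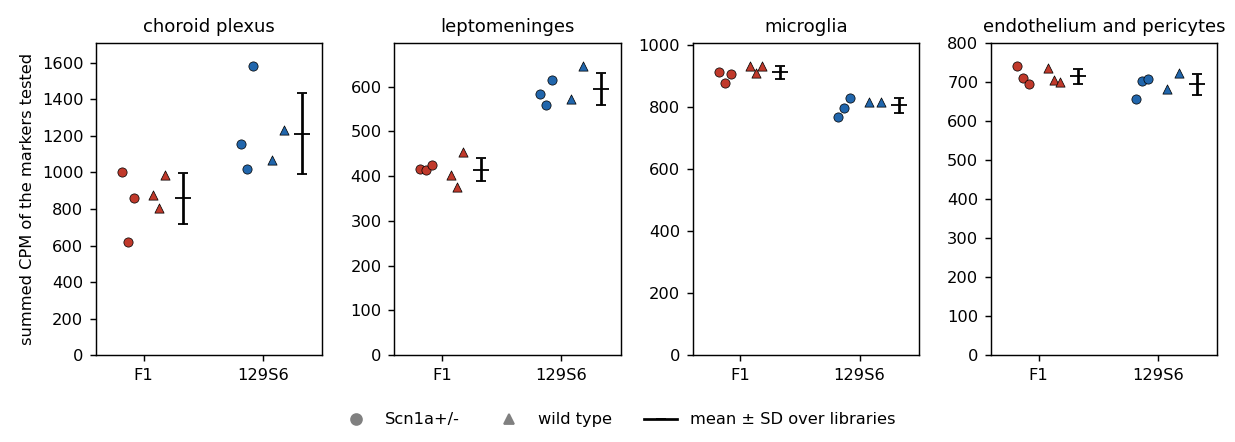
Each panel is a marker list, and each point is the CPM of a P14 library summed over the list's tested genes (circles Scn1a+/-, triangles wild type), with the mean and SD over libraries at the right. Choroid plexus and leptomeninges sums are lower in all 6 F1 libraries, microglia sums are higher (875.6 to 932 against 767.4 to 829.1 CPM) and endothelium sums overlap. Most of the choroid plexus sum is Ttr.

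Ribosomal protein genes were among the largest rises in F1, and the genome holds near-identical copies of them. Rps3a1, a ribosomal protein gene on chromosome 3 (86137940 to 86142668), was at 16 to 19.6 CPM in F1 (median 17.9) and at 0.748, 0.794, 0.775, 1.32 and 1.01 CPM in 129S6, a difference of 4.22 ± 0.14. Rpl29 rose by 4.03 ± 0.20 and Rpl3 by 3.45 ± 0.13 (15.6 to 20.6 CPM against 1.78, 1.91, 1.5, 1.32 and 1.65 CPM). For these genes 6, at least 50 and 7 further loci of the GRCm39 genome match 50% or more of the coding sequence at 90% identity or more. Their reads may not be placed on 1 copy, so the counts are uncertain. Hspa8, the constitutive heat shock chaperone Hsc70, has 4 such loci and was 57.5 to 68.7 CPM in F1 against 26, 21.4, 20.8, 22 and 20.9 CPM. It rose by 1.55 ± 0.07. Of 77 tested ribosomal protein genes, 9 were higher and 1 lower (13% called against 6.32% of all genes), with a median of 0.04. Of the 77, 69 had such copies, among them 8 of the 9 higher genes and the 1 lower gene. Over all genes, 1442 tested genes had such copies: 80 of them were higher and 19 lower (5.55% and 1.32%), against 445 higher and 428 lower of 13901 without copies (3.20% and 3.08%). A difference of allele mapping at near-identical genes and a difference of transcription cannot be told apart from these counts.

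Large rises were found in genes without such copies too. Krt12, a keratin, was 6.43 to 6.76 CPM in F1 against 0.374, 0.635, 0.41, 0.881 and 0.444 CPM in 129S6, a rise of 3.55 ± 0.21 that was 4.28 at P24. Pttg1, the securin that holds sister chromatids together, rose by 2.62 ± 0.16 (8.84 to 11.9 CPM against 1.12 to 2.38 CPM). Bfsp2, a filament protein of the lens, rose by 2.91 ± 0.27, Mcmdc2, a meiosis gene, by 2.89 ± 0.48 (it overlaps Snhg6, which was 0.60 higher, so its reads are uncertain), Tnni1, a slow-muscle troponin, by 2.13 ± 0.34 and Myoc, myocilin, by 1.82 ± 0.17. The chemokine Ccl28 rose by 2.38 ± 0.25 (2.95 to 3.92 CPM against 0.378 to 1.12 CPM). For 2 called genes there was no count in any 129S6 library at P14: Trim12a, a TRIM protein of innate immunity, with 67 counts over the 6 F1 libraries, and Epx, eosinophil peroxidase, with 30. With 3 counts as the floor for the 129S6 group, Trim12a was at least 24.5-fold higher and Epx at least 11-fold higher in F1, and both were at 0 in the 129S6 libraries of P24. Trim12c, a neighbour of Trim12a on chromosome 7, differed by -0.50, a call lost in 8 alternatives. Whether reads of this pair were placed alike in both strains was not tested, so the counts of Trim12a and Trim12c are uncertain.

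The largest falls were smaller and mostly in genes of low abundance. Klk1b22, a kallikrein-family serine protease, was at 0 to 0.466 CPM in F1 and 1.05 to 1.99 CPM in 129S6, a fall of 2.57 ± 0.40 on the log2 scale that was -2.40 at P24. Sycp1, of the synaptonemal complex, fell by 1.42 ± 0.19, Gdpd3, a lysophospholipase, by 1.24 ± 0.11 (4.27 to 5.75 CPM against 9.82 to 12.3 CPM), and Fxyd2, a regulatory subunit of the sodium pump, by 0.93 ± 0.12. Naalad2 fell by 0.96 ± 0.25, but the call was lost without replicate 2 of 129S6 wild type (it then fell by 0.79, edgeR adjusted p = 0.126). Among clustered protocadherins, the adhesion proteins that give neurons their identity, 2 were higher and 7 lower of 53 (17% called against 6.32% of all genes), with a median of 0.00. The counts were 3 and 5 without replicate 2 of F1 wild type, where Pcdhb2 (-0.56) and Pcdhb6 (-0.55) lost their calls (edgeR adjusted p = 0.053 and 0.0506). They were 1 and 8 without replicate 3 of 129S6 Scn1a+/-, where Pcdhga11 lost its call (0.28, edgeR adjusted p = 0.0711). Pcdhgb8, which overlaps Pcdhga11 (0.36 higher), fell by 1.04 ± 0.12, Pcdhb3 by 0.52 ± 0.11 and Pcdhb7 by 0.41 ± 0.09, and Pcdhb9 rose by 0.52 ± 0.11. Neighbouring protocadherins are similar in sequence, so reads may not be placed on 1 of them and the counts are uncertain.

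**Figure D4:**
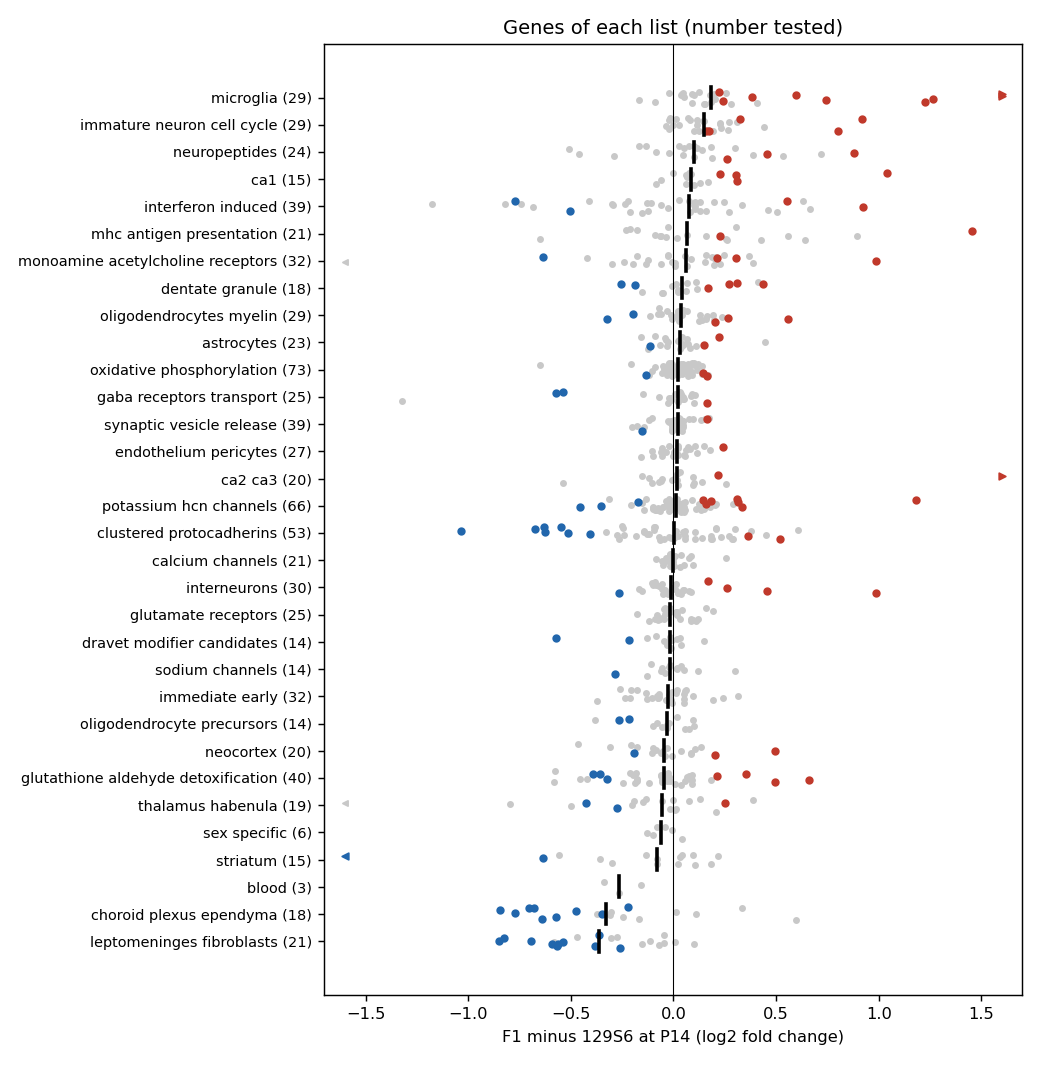
Each row is a gene list with the number of its genes tested; each dot is a gene's F1 minus 129S6 log2 fold change at P14, red and blue where called higher or lower and grey where not, and the bar is the list's median. The axis ends at 1.6 and the 6 genes beyond it are drawn as triangles at the edge; leptomeninges and choroid plexus have the lowest medians (-0.36 and -0.33) and microglia the highest (0.18).

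Of 40 genes of glutathione and aldehyde detoxification 4 were higher and 3 lower (17.5% called against 6.32% of all genes), or 2 and 2 with the seizure libraries in the fit. The median was -0.05. Without replicate 3 of 129S6 Scn1a+/- the counts were 3 and 2, where Gstm6 (0.55) and Gpx8 (-0.30) lost their calls (edgeR adjusted p = 0.14 and 0.0865). Both calls were lost without other single libraries too. Glo1, which clears methylglyoxal, was 85.3 to 90.2 CPM in F1 against 115, 105, 108, 116 and 114 CPM, a fall of 0.36 ± 0.04 in which a copy at 99.5% identity makes the count uncertain. Gsr, glutathione reductase, fell by 0.39 ± 0.06, and Gsto1 rose by 0.49 ± 0.07. Of 21 antigen presentation genes 2 were higher (9.52%), H2-T24 (1.45 ± 0.15) and B2m (0.23, lost at 0.18 without replicate 3 of F1 Scn1a+/- or replicate 1 of 129S6 wild type, edgeR adjusted p = 0.0853 and 0.147), and of 39 interferon-induced genes 2 were higher and 2 lower (10.3%), with Mndal at 0.92 and Xaf1 at -0.77. Immediate early genes gave 0 calls among 32 by edgeR and by DESeq2, with 5 at an unadjusted edgeR p under 0.05. Without a filter on low counts edgeR called 1 higher and 2 lower, with P14 libraries alone 1 lower, and without 1 library up to 2 in a direction. Fos differed by -0.37 (edgeR adjusted p = 0.11). Oxidative phosphorylation genes gave 2 higher and 1 lower of 73 (4.11%) and synaptic vesicle release genes 1 higher and 1 lower of 39 (5.13%), shares near that over all genes. Astrocyte markers gave 2 and 1 of 23 (13%), myelin genes 3 and 2 of 29 (17.2%) and oligodendrocyte precursor markers 0 and 2 of 14 (14.3%). With the seizure libraries in the fit the first 3 of these 5 lists held no call and myelin genes 1, and without a filter on low counts 9 myelin genes were higher. Calls were lost without replicate 1 of 129S6 wild type for the water channel Aqp4 (0.10), F3 (0.18), Doc2b (0.14), Rims1 (-0.10), Cox6c (0.13), Mobp (0.18) and Ermn (0.21), with edgeR adjusted p from 0.0604 to 0.346. Without replicate 2 of that group they were lost for the gap junction genes Gja1 (-0.09) and Gjc3 (-0.16), for Sdhc (-0.11), Sdhd (0.15) and Opalin (-0.28), with edgeR adjusted p from 0.084 to 0.308. Gja1 lost its call in 12 alternatives and Sdhc in 10. No blood marker of 3 tested and none of 6 sex-specific genes was called by edgeR or DESeq2, with 1 and 0 at an unadjusted p under 0.05, and 6 of 13 blood markers had no count in any P14 library.

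Among 986 called genes with a position, 13.0% had a called gene as their nearest tested neighbour, against 5.80% of the 14663 not called. These made 90 neighbouring pairs, 58 of which moved the same way and 32 in opposite ways, and 9 of which overlap. Reads from a stretch where genes overlap cannot be given to 1 of them in an unstranded library, so such counts are uncertain. Pairs named after their values were seen include Lct, lactase, and Mcm6 on chromosome 1 (128284756 to 128328318 and 128331575 to 128359705), at 0.31 and 0.80 higher, and Krt12 with Krt20 on chromosome 11, at 3.55 and 3.12 higher. Serpina3m and Serpina3n on chromosome 12 differed by -0.73 and -0.72. In windows of 2 megabases the highest share was on chromosome 13 (118000001 to 120000000), where 6 of 11 tested genes were called and all 6 were higher, 4833420G17Rik, 3110070M22Rik, Gm7120, Ccl28, Nim1k and Zfp131. Another on chromosome 13 (12000001 to 14000000) held 6 of 13, with 3 higher and 3 lower, and a window of chromosome 18 (10000001 to 12000000) held 4 of 10, all lower: Usp14, Greb1l, Esco1 and Abhd3. Gpr137b-ps rose by 2.19 in the second of these, while its neighbour Gpr137b fell by 0.46. Gpr137b-ps has a near-identical copy elsewhere in the genome, so its reads may be misplaced and its count is uncertain. Whether reads moved between it and Gpr137b was not tested. Of 699 windows with at least 8 tested genes 284 had no call. The share called per chromosome ran from 3.20% on X to 9.09% on chromosome 18.

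In wild type alone 370 genes were called (2.36%), in Scn1a+/- alone 482 (3.07%), and 210 genes were called in both with the same sign and none with opposite signs, which is 56.8% of the wild-type and 43.6% of the Scn1a+/- calls. Single libraries moved these counts: the wild-type count was 152 without replicate 2 and 183 without replicate 1 of 129S6 wild type, and 238, 239 and 244 without replicates 1, 2 and 3 of F1 wild type. The Scn1a+/- count was 309 and 302 without replicates 1 and 3 of F1 Scn1a+/- and 305 without replicate 3 of 129S6 Scn1a+/-. Whether the strain difference depended on genotype was tested directly: edgeR called 0 genes (0%), with 718 at an unadjusted p under 0.05 and a smallest adjusted p of 0.597. DESeq2 also called 0. This does not show that no gene depends on genotype.

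Most P14 strain differences were seen again at P24, in other libraries. Of the 991 genes called at P14, 585 (59.0%) were also called at P24 with the same sign and 5 with the opposite sign, and 921 (92.9%) had the same sign, against 60.2% of all genes tested. At P24 the strains differed at 2104 genes (13.4%). Of the larger differences, 66 of 75 genes more than 1 log2 unit higher at P14 were called in the same way at P24, and 11 of 36 genes lower by as much. Over the genes called at P14 the correlation of the log2 fold changes was 0.91, and over all tested genes 0.60, as a description over genes. The labels and file names of the P24 129S6 libraries disagree about genotype, which an average over genotypes does not depend on. Scn1a was at 139.6 ± 5.14 CPM in the P24 129S6 libraries labelled Scn1a+/- and 109.9 ± 0.743 CPM in those labelled wild type (SD, n = 3 each), so the targeted gene goes against these labels. At P24 in F1 the mean of Scn1a was lower in Scn1a+/- (104.5 ± 15.5 CPM, SD, n = 2) than in wild type (127.7 ± 2.56 CPM, n = 3).

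The difference itself changed with age for 42 genes (0.268% of those tested), 28 of which had opposite signs at P14 and P24. Malat1, a nuclear long noncoding RNA, was 868 to 1186 CPM in F1 and 987 to 1302 CPM in 129S6 at P14, a difference of -0.23 that became 0.65 at P24. Rims1, an active-zone protein, went from -0.15 to 0.22, but its P14 call was lost without any 1 of 5 libraries (-0.10 with an edgeR adjusted p of 0.346 without replicate 1 of 129S6 wild type). Nov, a CA1 marker, went from 0.22 to -0.21. Its P14 call was lost by DESeq2 (0.22, DESeq2 adjusted p = 0.0532) and without replicate 2 of 129S6 wild type (0.19). It was also lost with the seizure libraries in the fit (0.22, edgeR adjusted p = 0.445). Lpl, lipoprotein lipase, went from -0.17 to -0.64. Bub1b, a spindle checkpoint kinase, was 0.69 higher at P14 and 2.87 higher at P24 (3.09 to 4.09 CPM against 1.87 to 3.3 CPM at P14), with the P14 call lost without replicate 1 of 129S6 wild type (0.53, edgeR adjusted p = 0.127). This count depended on the analysis: it was 222 without the filter on low counts, 155 by DESeq2 and 1 with the seizure libraries in the fit. Leaving out 1 P14 library gave 7 to 69: 7 and 12 without replicates 1 and 2 of 129S6 wild type, 69, 24 and 10 without replicates 1, 2 and 3 of 129S6 Scn1a+/-, 8 and 22 without replicates 1 and 3 of F1 Scn1a+/-, and 13, 25 and 11 without replicates 1, 2 and 3 of F1 wild type.

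**Figure D5:**
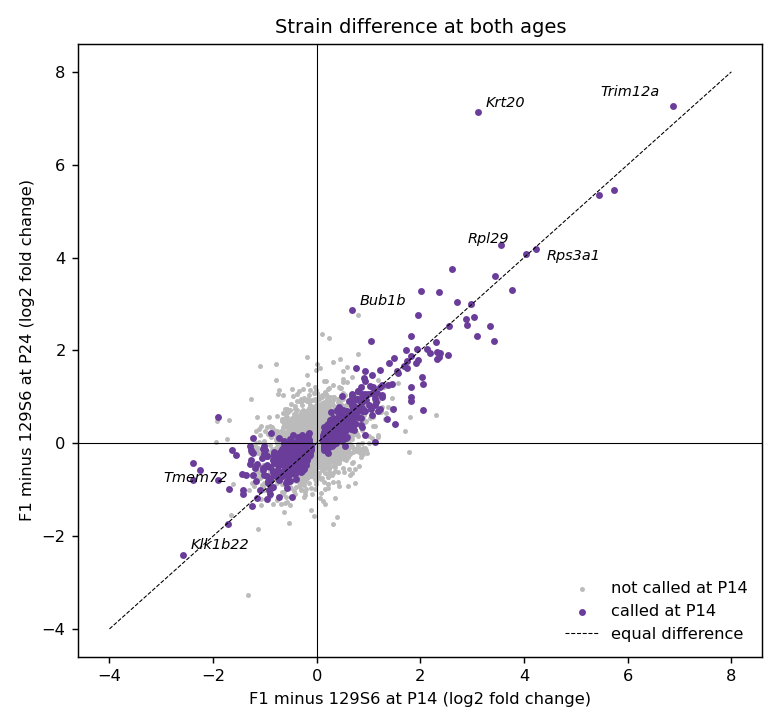
Each point is a gene, with its F1 minus 129S6 log2 fold change at P14 on the x axis and at P24 on the y axis, purple where called at P14; the dashed line marks equal differences. Large rises such as Rps3a1 (4.22 and 4.18) and Trim12a lie along the line, while Bub1b (0.69 and 2.87) and Krt20 (3.12 and 7.13) lie above it.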

How the data were processed

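Hippocampal RNA was sequenced from pools of mice, with a kit that marks no strand, per the labels' protocols. The authors deposited raw counts per gene symbol, whole numbers for 24421 symbols; every line names a gene. Listed in the submitters' processing notes are TopHat2 2.1.0, HTSeq 0.6.1p1, CASAVA and the build mm10. For the annotation and strand setting nothing is given in the sources used here, and overlapping and antisense genes cannot be told apart.

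The 22 libraries without seizures were fitted with edgeR 4.0.16 (R 4.3.3, limma 3.58.1) by quasi-likelihood with a coefficient for each of 8 groups, TMM normalization and filterByExpr (minimum count 10), leaving 15690 genes. Spread between pools was low (common biological coefficient of variation 5.44%). Calls needed an adjusted p (Benjamini-Hochberg, all genes) under 0.05. CPM and log2 fold changes (F1 minus 129S6, with approximate standard errors) were computed here. Totals of 7436442 to 25520050 counts set the precision of low genes. A check on simulated counts was run. Alternatives were no filter, DESeq2 1.42.0, its size factors, other sets of libraries and leaving out each P14 library. Counts of calls within lists under these alternatives were added after the data were seen.

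Coordinates and promoters are from RefSeq GRCm38.p6, the assembly of mm10 (23204 symbols matched, 1096 by an older name, 121 not). Copies were sought with minimap2 2.31 in GRCm39, for 97.8% of tested genes. The members and lists were chosen with earlier results of these data known. Named are the 15 largest rises and 15 largest falls among called genes whose libraries do not overlap, whose mean log2 CPM is 0 or more and whose symbol is that of a studied gene, up to 4 called members of each list (or 2 with the smallest p), called genes of the top 3 windows and the leading interaction genes. Scn1a, Hspa8, Trim12a, Epx, Hlf, Cacna1g, Scn2a1, Scn8a, Gad1, Pvalb, Penk, Fos, Dcn, Col1a1, P2ry12, Tmem119, Cx3cr1, Krt20, Dcx and members named beyond 4 in a list were chosen after their values were seen.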

Additional observations from a re-analysis of the deposited data

Results flagged for a closer look

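The 5 or 6 libraries of each strain at P14 were searched, for each named gene and each summed list, for a library far from the rest (420 sets of values). There were 35 outlying values, and chance gives about 1 for every 20 sets. The sets share libraries, and summed lists share genes with single ones, so they are not independent. No cause was tested.

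Replicate 1 of 129S6 Scn1a+/- was far from its group in 9 sets. It was high for C1qa (38.2 CPM), Gria1 (867), Hspa8 (26) and Tubb2b (223), and for the sums of monoamine and acetylcholine receptors (735 CPM), synaptic vesicle release genes (17700) and CA2 and CA3 markers (2170). It was low for Hspb8 (5.43 CPM) and Rgs5 (62.1). Replicate 2 of that group was high for Isl1 (1.11 CPM), Kcnip3 (82.3), Mcm6 (8.02), Olfml3 (3.97) and Tcf7l2 (14.5), and replicate 3 for Oscar (0.501). Replicate 1 of 129S6 wild type was high for Gpr137b-ps (1.7 CPM), Mef2c (216), Miip (13.2) and the sum of neocortex markers (904), and replicate 2 for Necab2 (74.2).

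Among F1 libraries, replicate 1 of Scn1a+/- was high for Dcn (38.4 CPM) and Gdpd3 (5.75) and low for Rims1 (123). Replicate 2, the shallowest library, was high for Rora (66.8 CPM) and the sum of thalamus and habenula markers (432). Replicate 3 was high for Abhd3 (91.8 CPM), Eif2s3y (41.9), Gm7120 (12.8) and Plekhg1 (63.4) and low for Fxyd2 (4.45). Replicate 1 of F1 wild type was low for Nptx2 (37 CPM) and for the sums of glutamate receptors (3840) and of monoamine and acetylcholine receptors (651). Replicate 3 was low for Dsp (40.3 CPM) and high for Malat1 (1190).

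For 8 named genes the strain difference changed between P14 and P24 by edgeR's interaction test. The P24 minus P14 change in the F1 minus 129S6 log2 difference was 2.18 for Bub1b, 1.13 for Pttg1, 0.88 for Malat1, 0.83 for Tmem72, 0.41 for C1ql2, 0.38 for Rims1, -0.43 for Nov and -0.47 for Lpl.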

How the results depend on the processing

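With the 25 libraries of the series in the fit, the seizure group included, the P14 strain count fell to 588 genes, 324 higher and 264 lower, and 586 of them were among the main calls with the same sign. In that fit the counts were 179 in wild type, 228 in Scn1a+/-, 1008 at P24, 360 shared by both ages and 1 for strain by age. Strain by age gave 222 genes with no filter on low counts and 155 by DESeq2. Strain by genotype gave 4 with no filter. The P14 strain count was 1124 with no filter, 988 with DESeq2 size factors, 1000 by DESeq2 and 1051 with P14 libraries alone. Leaving out each P14 library in turn, it ran from 693 to 1049, with 396 to 558 higher and 297 to 491 lower, lowest without replicate 2 of 129S6 wild type. The wild-type count ran from 152 to 384, the Scn1a+/- count from 302 to 466, the P24 count from 2017 to 2160, the count shared by both ages from 441 to 570, strain by genotype from 0 to 0 and strain by age from 7 to 69 (7 without replicate 1 of 129S6 wild type, 69 without replicate 1 of 129S6 Scn1a+/-). Causes of these shifts were not tested. Of 141 called named genes, 92 kept the call in every alternative run and 49 lost it in at least 1. No named gene changed direction while called. No paired analysis was possible because library numbers in the titles run through the series and no 2 groups share one. Depth limits genes of low abundance, and no such gene that missed the threshold is shown to be alike in the strains.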
